A study of Mus musculus with 13 samples.

Results

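Adrenal glands were profiled by messenger RNA sequencing at 8 weeks and at 24 hours after tamoxifen (TAM), which induces the loss of Star in these mice. The comparison takes the libraries titled 8 wk after TAM, numbered 1 to 4, against those titled 24h after TAM, numbered 1 to 4, which makes 8 of the 13 libraries of the series. Both groups are from C57BL/6 mice, both received TAM, and both are labelled by the time that had passed since the Star knockout. The labels used here name neither the alleles, the promoter that drives the recombinase, the TAM dose, nor the age or sex of the animals. They do not say whether libraries with different numbers came from different animals, so a p-value here reflects no more than the scatter among the sequenced libraries. The other 5 libraries, from before TAM, enter no test below and are given as levels. No library here received TAM without losing Star, so the 2 groups differ in time since TAM and in time since the loss of Star together.

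Star carries cholesterol to the inner mitochondrial membrane, where the side-chain cleavage enzyme turns it into pregnenolone, the first step of steroid synthesis in the adrenal cortex. When steroid-making cells cannot use the cholesterol they take up, it is stored as esters in lipid droplets. Around the cortex lie a capsule and fat tissue, inside it a catecholamine-making medulla, and throughout it vessels and resident macrophages.

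Levels are given as FPKM (fragments per kilobase of transcript, scaled to the size of the library), summed over the transcripts of a gene that both deposited tables list, and in the order of replicates 1 to 4. Listed reads came to between 20051690 and 27309429 per library at 24 h and between 17331673 and 25578907 at 8 weeks. The tissue label was read against marker genes chosen after their values were seen. In the library labelled 24 h replicate 3, Cyp21a1 and Cyp11b1, which make corticosteroids, stood at 2.42 and 1.07 FPKM. The lowest of the other 7 libraries held 239 FPKM of Cyp21a1 and 177 FPKM of Cyp11b1. Gata4, Wt1 and Nr5a2, transcription factors known from the gonads, stood there at 83.04, 49.2 and 32.5 FPKM, and each was at most 2.77 FPKM in the other 7. Its correlation across genes with another of the 8 libraries lay between 0.736 and 0.830 on log2 CPM, against 0.806 to 0.977 for the other pairs, with genes that are not independent. Xist, expressed from the inactive X chromosome, was at 23.6, 17.7, 0.0374 and 0.0101 FPKM at 24 h and at 41.6, 33.8, 34.2 and 35.6 FPKM at 8 weeks, near 0 in 24 h replicates 3 and 4 alone, and the labels used here give no sex.

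Other libraries carried RNA of other tissues. The summed level of 20 medulla genes was 5876, 3046, 94.4 and 217 FPKM at 24 h and 7470.3, 10450.4, 7463 and 10312 FPKM at 8 weeks, low in 24 h replicates 3 and 4. Alb, the liver's albumin gene, reached 13283 FPKM in 8-week replicate 3 and at most 11.7 FPKM in the other 7. In 8-week replicate 1, Cpb1 of the exocrine pancreas stood at 960.3 FPKM and the neutrophil gene S100a8 at 988 FPKM. The 12 white fat genes summed to 5804, 2264, 74.9 and 2664 FPKM at 24 h and to 21804, 10795, 10238 and 17086 FPKM at 8 weeks, and every 8-week library was above every 24 h library. Adipoq, the adiponectin gene of fat cells, was at 223, 64.1, 0.103 and 88.9 FPKM at 24 h and 769, 345, 419 and 731 FPKM at 8 weeks. Ucp1, which marks brown fat, was at 219.7, 267, 0.116 and 28.02 FPKM at 24 h and 508, 943, 279 and 1349.5 FPKM at 8 weeks. The part that other tissue had in each result below was not tested unless values are given for it.

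**Figure D1:**
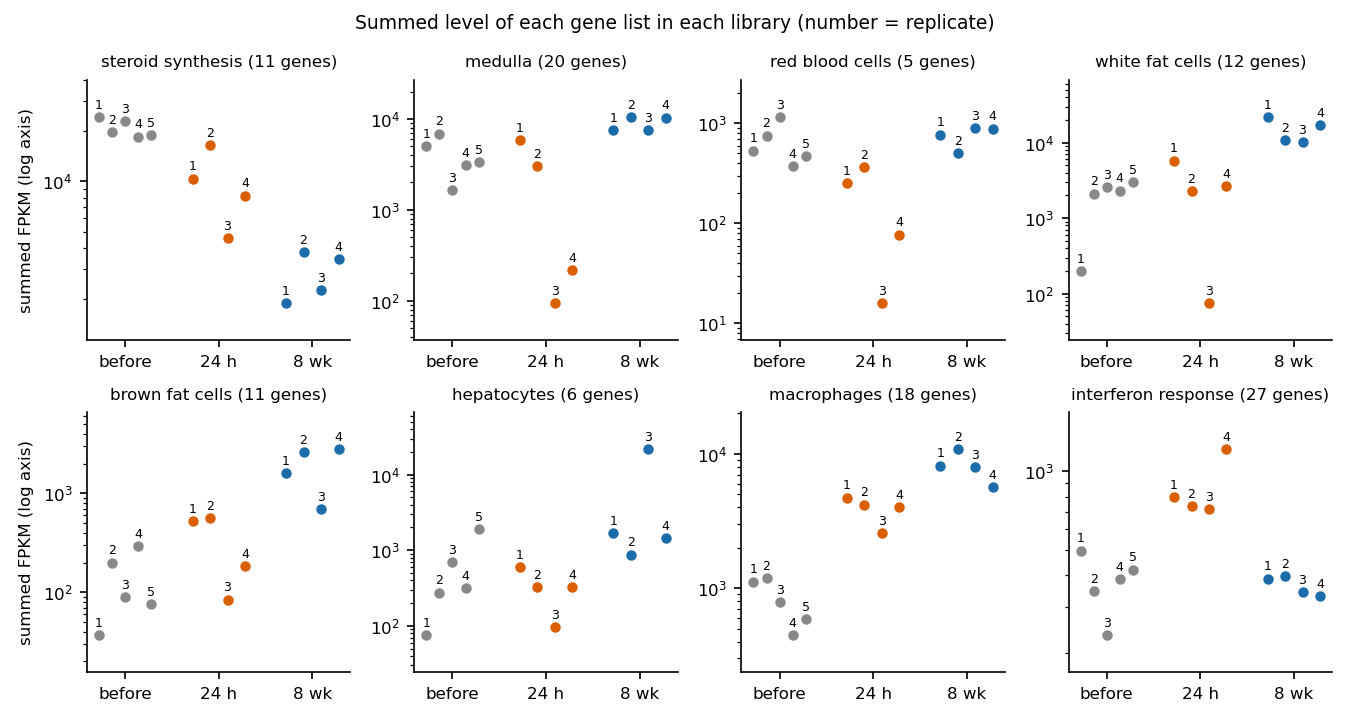
Summed FPKM (log axis) of the genes of 8 lists in each library, by group (before TAM, 24 h, 8 wk), with 1 point per library and its replicate number above it. Of the 24 h libraries, replicates 3 and 4 are lowest for medulla genes at 94.4 and 217 FPKM, and 8-week replicate 3 is highest for hepatocyte genes at 21545 FPKM.

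With all 8 libraries, 973 of 14029 genes tested were called at an adjusted p under 0.05 (edgeR's quasi-likelihood test, Benjamini-Hochberg adjustment). Of these, 460 rose from 24 h to 8 weeks (3.28% of genes tested) and 513 fell (3.66%). Without 24 h replicate 3 the counts were 1124 higher (8.01%) and 1330 lower (9.48%). Without 24 h replicates 3 and 4 they were 1115 higher (7.94%) and 1175 lower (8.36%), and without both libraries numbered 3 they were 862 higher (6.14%) and 1141 lower (8.13%). Of the 973 genes, 386 higher and 448 lower ones were called the same way with all 8 libraries, without 24 h replicate 3 and without 24 h replicates 3 and 4. In 9.95% of genes tested every 8-week library was above every 24 h library in FPKM, and in 13.4% every one was below.

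The number of calls depended on the other libraries as well. Without 24 h replicate 2 there was 1 call, Sfrp5, although 3356 genes had an unadjusted p under 0.05, against 4178 with all 8. Without 8-week replicate 1 there were 2 calls, and no member of any gene list was called in either of those fits. Without 8-week replicate 3 there were 93 calls higher (0.662%) and 65 lower (0.463%), 23 list members among them, and 85 of the 112 genes named below that were called with all 8 libraries were no longer called. The other left-out libraries gave 41 calls without 8-week replicate 4, 50 without 8-week replicate 2, 472 without 24 h replicate 4 and 743 without 24 h replicate 1. The direction changed less than the call. In each of the 8 fits with 1 library left out, all 460 higher genes kept their sign, as did 512 or 513 of the 513 lower ones. Such fits reuse the libraries that picked these genes. A kept sign was therefore near certain and lends the calls no independent support. In what follows, rose and fell are used of genes called with all 8 libraries, and the calls hold within these limits. A log2 fold change is 8 weeks over 24 h with its standard error.

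**Figure D2:**
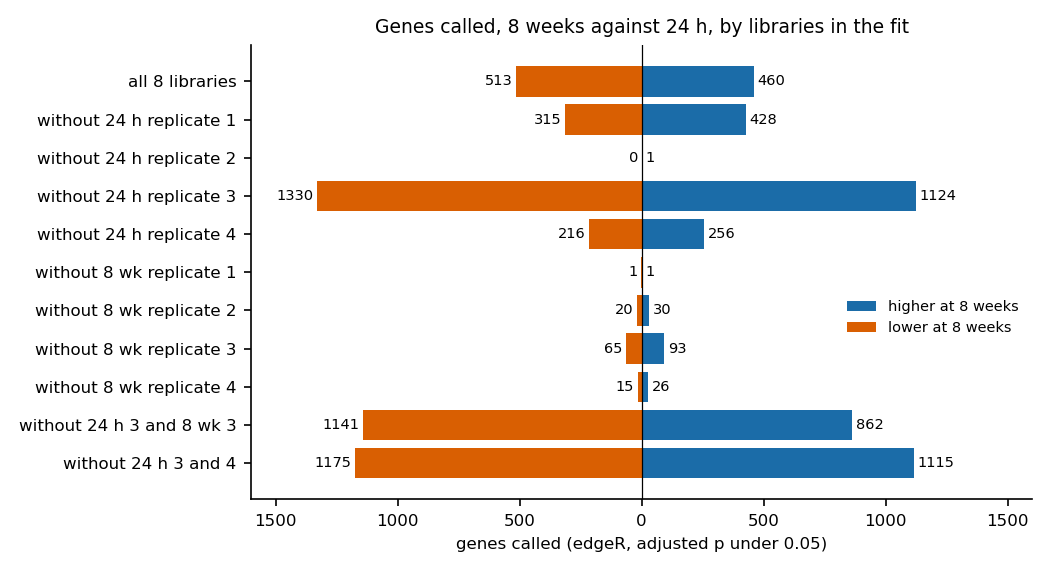
Number of genes called higher (right) and lower (left) at 8 weeks than at 24 h, with the libraries in the fit on the vertical axis. The count goes from 973 with all 8 libraries to 2454 without 24 h replicate 3 and to 1 without 24 h replicate 2.

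Star itself (chr8:25808513-25816119, mm10) was read first. Its summed level was 487, 626, 17.4 and 208 FPKM at 24 h and 126, 202, 85.8 and 171 FPKM at 8 weeks, and it had been 3207 to 4239 FPKM before TAM. The 8-week libraries overlapped the 24 h group only through 24 h replicate 3, and 8-week replicate 2 lay just below 24 h replicate 4. On the log2 scale Star differed by -1.21 ± 0.81, and its adjusted p, 0.344, missed the threshold. Without 24 h replicate 3 it was -1.58 (adjusted p = 0.0302), without both libraries numbered 3 the adjusted p was 0.0482, and without 24 h replicates 3 and 4 it was 0.0101. The tables hold a Star transcript model with the deletion beside one without it. The model with the deletion carried 94.99%, 90.6%, 75.1% and 86.8% of Star FPKM at 24 h and 26.9%, 29.6%, 70.9% and 60.1% at 8 weeks. Before TAM that share was between 1.28% and 13.5%. All 4 shares at 8 weeks were below all 4 at 24 h. The mean share was 46.9% ± 22.0 (SD, n = 4) at 8 weeks and 86.8% ± 8.55 (SD, n = 4) at 24 h, two-sided exact permutation p = 0.0286, the smallest that 4 against 4 can give. With any 1 of the 24 h libraries left out the exact p was 0.0571, and with any 1 of the 8-week libraries left out it was 0.0286. The shares come from the authors' division of reads between the models, whose common exons can share reads. In FPKM, the model without the deletion stood at 24.4, 59.2, 4.34 and 27.6 at 24 h and at 91.95, 142, 24.95 and 68.3 at 8 weeks, while the model with it stood at 463, 567, 13.1 and 181 at 24 h and at 33.8, 59.6, 60.9 and 103 at 8 weeks.

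**Figure D3:**
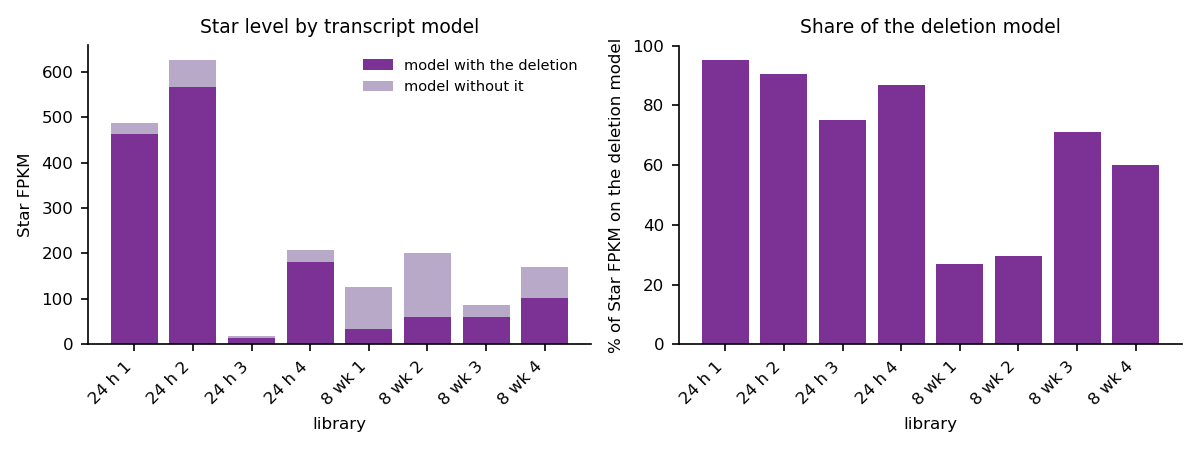
Left, Star FPKM in each 24 h and 8-week library, stacked by transcript model (with the deletion, without it). Right, the percentage of Star FPKM on the model with the deletion, between 75.1% and 94.99% at 24 h and between 26.9% and 70.9% at 8 weeks.

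Interferon-stimulated genes are switched on by signals from the interferon receptors, and many carry a promoter motif called the interferon-stimulated response element. Of the 27 genes of this list that were tested, 13 fell between 24 h and 8 weeks and the other 14 were not called, where 3.66% of all genes tested fell. The count lower was 22 without 24 h replicate 3 (9.48% of all genes) and 20 without both libraries numbered 3 (8.13%). It was 20 without 24 h replicates 3 and 4 (8.36%). With 8-week replicate 3 left out 2 of the 27 were called lower (0.463% of all genes), and 26 had a lower level with an unadjusted p under 0.05. In 22 of the 27 every 8-week library was below every 24 h library, where 13.4% of all genes did so. The median log2 fold change of the list was -1.18, against -0.08 over all genes tested. Summed over the list, the level was 793, 735, 715 and 1215 FPKM at 24 h, 387, 396, 343 and 331 FPKM at 8 weeks and 234 to 496 FPKM in the 5 libraries from before TAM.

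The promoters of 4 of the genes that fell are shown to display the element, with RefSeq sequence on GRCm38.p6 from 250 bases before to 50 bases after the start of transcription, 5′ to 3′ on the strand of the gene. Capitals mark matches to the core of the element, GAAA, any 2 bases and GAAA again, or to its reverse complement, and matches can overlap.
Ddx58: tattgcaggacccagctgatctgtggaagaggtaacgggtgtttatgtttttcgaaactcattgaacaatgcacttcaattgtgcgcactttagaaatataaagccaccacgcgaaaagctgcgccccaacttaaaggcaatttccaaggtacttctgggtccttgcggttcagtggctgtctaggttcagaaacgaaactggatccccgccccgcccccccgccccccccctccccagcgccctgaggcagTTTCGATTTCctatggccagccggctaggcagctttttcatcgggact
Ifit3: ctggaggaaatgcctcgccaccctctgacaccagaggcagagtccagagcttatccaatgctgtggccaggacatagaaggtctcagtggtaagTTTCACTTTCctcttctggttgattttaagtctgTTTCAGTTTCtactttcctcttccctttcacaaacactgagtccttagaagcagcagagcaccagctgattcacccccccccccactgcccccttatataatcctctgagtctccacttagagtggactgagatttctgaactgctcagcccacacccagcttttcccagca
Oas3: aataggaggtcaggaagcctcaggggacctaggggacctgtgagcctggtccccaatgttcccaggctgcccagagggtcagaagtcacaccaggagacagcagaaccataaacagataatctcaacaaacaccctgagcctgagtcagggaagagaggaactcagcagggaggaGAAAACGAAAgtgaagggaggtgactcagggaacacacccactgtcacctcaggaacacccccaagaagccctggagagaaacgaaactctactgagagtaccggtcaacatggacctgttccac
Gbp3: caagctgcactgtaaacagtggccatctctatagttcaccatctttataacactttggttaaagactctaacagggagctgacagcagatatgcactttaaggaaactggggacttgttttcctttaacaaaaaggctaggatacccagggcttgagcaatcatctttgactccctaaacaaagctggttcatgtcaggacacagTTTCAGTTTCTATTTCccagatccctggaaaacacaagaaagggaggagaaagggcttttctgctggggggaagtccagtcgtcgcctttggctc
These windows are chr4:40239776-40240075 (minus strand), chr19:34583279-34583578 (plus), chr5:120777610-120777909 (minus) and chr3:142559794-142560093 (plus). Ifit3 and Gbp3 hold 2 matches each, overlapping in Gbp3, and Ddx58 and Oas3 hold 1 each. A match was found for 12 of the 20 list members with a promoter in the table and for 7 of the 11 of them that fell. Over all 27025 genes in the table the share was 3.99%. A motif was also searched for each of the cholesterol synthesis, ATF4 target, lysosome and steroid synthesis lists. It was found for 1 of 18, 7 of 22, 6 of 23 and 0 of 6 members with a promoter. Among called members the counts were 0 of 4, 0 of 2, 0 of 2 and 0 of 3. The shares over all genes were 1.436%, 4.511%, 1.125% and 1.761%. A match is a description of these letters and not of a bound site.

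Irf7 (chr7:141263183-141266424), the transcription factor that amplifies the interferon response, was at 80.7, 74.7, 33.95 and 112 FPKM at 24 h and 10.3, 14.5, 16.2 and 13.7 FPKM at 8 weeks. All 4 values at 8 weeks lay below the lowest at 24 h, and the log2 fold change was -2.41 ± 0.37 (adjusted p = 0.019). Before TAM its level had been 10.1 to 20.7 FPKM, which spans the 8-week values. Ifit3, which binds foreign RNA together with other Ifit proteins, stood at 65.1, 55.4, 50.7 and 142 FPKM at 24 h and 21.8, 22.96, 18.7 and 18.2 FPKM at 8 weeks, with 24 h replicate 4 highest (log2 fold change -1.91 ± 0.36, adjusted p = 0.0281). Oasl2, of the oligoadenylate synthetase family, was at 42.1, 38.1, 64.3 and 36.8 FPKM at 24 h and 23.3, 24.8, 17 and 19.3 FPKM at 8 weeks. There 24 h replicate 3 was the highest, the groups did not overlap, and the log2 fold change was -1.04 ± 0.19 (adjusted p = 0.026).

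Ddx58, the cytoplasmic sensor RIG-I, was the member with the lowest p. Its level was 19.8, 17.2, 16.9 and 20.6 FPKM at 24 h and 9.38, 8.63, 8.74 and 8.64 FPKM at 8 weeks, and the 8-week values lay within a range of less than 1 FPKM (log2 fold change -1.02 ± 0.15, adjusted p = 0.019). Before TAM it had been 13.3 to 20.7 FPKM, so that the 24 h libraries stood within the earlier range and the 8-week libraries under it. Oas3, another oligoadenylate synthetase, was at 3.69, 3.32, 1.48 and 6.72 FPKM at 24 h and 0.929, 0.574, 0.826 and 0.654 FPKM at 8 weeks (log2 fold change -2.31 ± 0.48, adjusted p = 0.033). Gbp3, a guanylate-binding protein gene, was at 31.1, 25.8, 32.9 and 52.5 FPKM at 24 h and 17.6, 15.2, 12.6 and 15.9 FPKM at 8 weeks (log2 fold change -1.18 ± 0.25, adjusted p = 0.0343). These genes are named for their promoters, after their values were seen, and in neither did the groups overlap. Isg15, a ubiquitin-like modifier chosen after its values were seen, was at 34.4, 40.6, 23.1 and 81.4 FPKM at 24 h and 14.5, 19.6, 9.17 and 11.5 FPKM at 8 weeks (adjusted p = 0.0487). Paralogs such as the Oas, Ifit and Gbp genes can share reads under this counting.

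**Figure D4:**
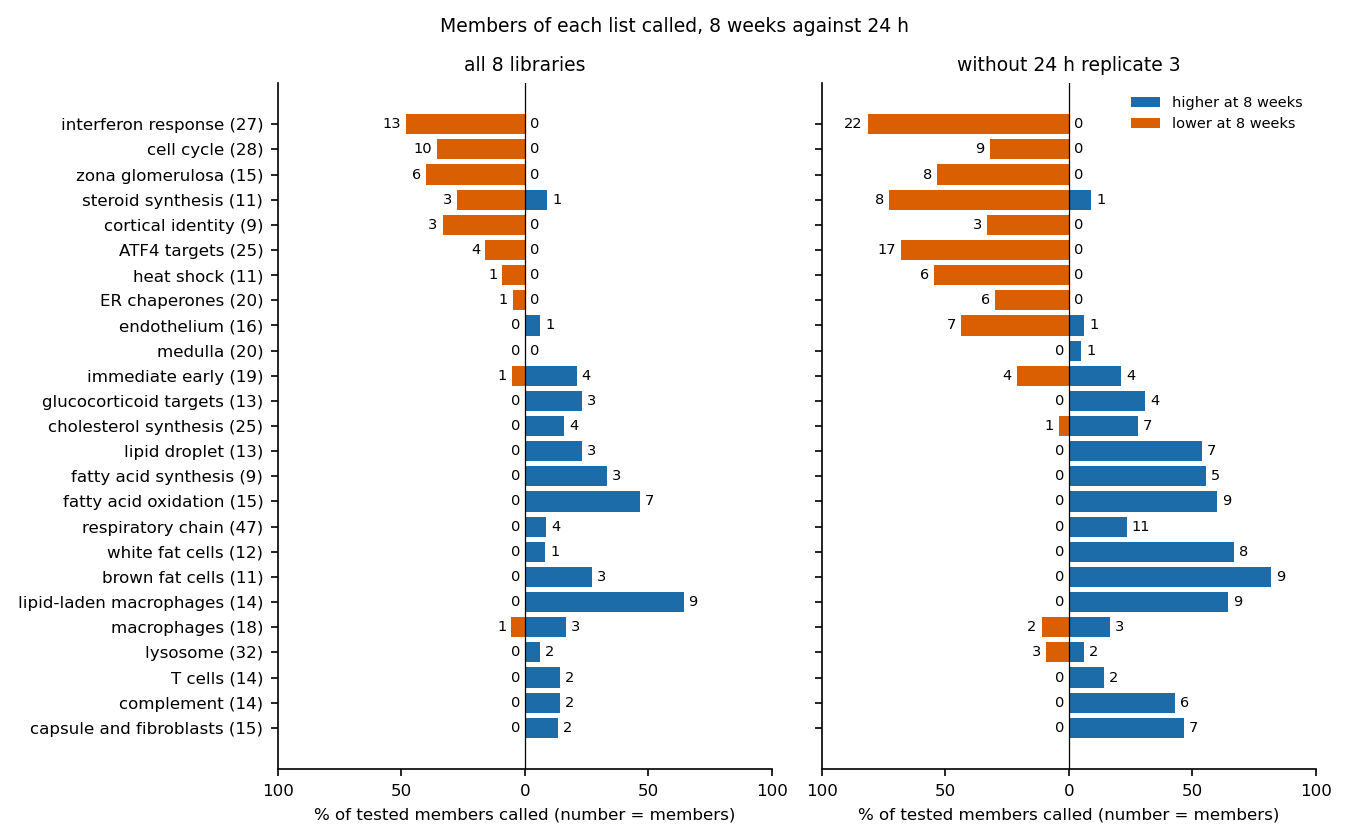
Percentage of the tested members (number in parentheses) of 25 gene lists called higher (right) or lower (left) at 8 weeks than at 24 h, with the number of members at each bar, for all 8 libraries and without 24 h replicate 3. The interferon list had 13 and then 22 of 27 members lower, and the lipid-laden macrophage list 9 of 14 higher in both fits. Over all genes 3.66% and then 9.48% were lower, and 3.28% and then 8.01% higher.

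ATF4 is the transcription factor that the integrated stress response turns on and that raises amino acid transport and synthesis. Of 25 tested genes of its programme, 4 fell, where 3.66% of all genes did. The count was 17 without 24 h replicate 3 (9.48% of all genes) and 18 without both libraries numbered 3 (8.13%). It was 17 without 24 h replicates 3 and 4 (8.36%) and 1 without 8-week replicate 3 (0.463%). The median log2 fold change of the list was -1.03 with all 8 libraries. Slc7a5, the light chain of the LAT1 amino acid transporter, was at 44.6, 59.98, 45.5 and 29.02 FPKM at 24 h and 9.07, 13.2, 5.48 and 9.62 FPKM at 8 weeks, against 20.6 to 34.4 FPKM before TAM. It fell by 2.22 ± 0.27 on the log2 scale (adjusted p = 0.0134), and no 8-week library reached the 24 h or the earlier range. Ddit3, which encodes CHOP, was at 68.3, 91.5, 29.4 and 51.05 FPKM at 24 h and 17.6, 24.99, 16.1 and 18.8 FPKM at 8 weeks (log2 fold change -1.59 ± 0.33, adjusted p = 0.0332). Phgdh, the first enzyme of serine synthesis, was at 23.97, 24.3, 15.1 and 45.4 FPKM at 24 h and 12.6, 6.52, 4.46 and 9.18 FPKM at 8 weeks (log2 fold change -1.72 ± 0.42, adjusted p = 0.047). For Atf4, at 172, 232, 87.9 and 301 FPKM at 24 h and 97.2, 100.1, 72.1 and 84.4 FPKM at 8 weeks, the adjusted p was 0.0744 with all 8 libraries and 0.00666 without 24 h replicate 3.

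The lists of chaperones, heat shock genes and p53 targets gave 1 call each with all 8 libraries, all lower, counts that are near the 3.66% of all genes that fell. Hyou1, a chaperone of the endoplasmic reticulum, was the called member of 20 (log2 fold change -1.20 ± 0.30, adjusted p = 0.0497) at 65.8, 73.9, 33.1 and 78.3 FPKM at 24 h and 21.6, 27.5, 29.6 and 27.6 FPKM at 8 weeks. Of the 11 heat shock genes Hspa1b, an inducible HSP70, was called at 8.76, 12.2, 4.64 and 6.66 FPKM at 24 h and 2.69, 3.27, 3.37 and 2.79 FPKM at 8 weeks (log2 fold change -1.36 ± 0.32, adjusted p = 0.0439), and it has a near-identical copy. Without 24 h replicate 3 the counts lower were 6 of 20 chaperone and 6 of 11 heat shock genes, where 9.48% of all genes were lower, and 5 of 15 p53 targets were lower and 2 higher. Trp53inp1 was the called one of 15 p53 targets, and it fell from 51.1, 45.05, 34.8 and 64.1 FPKM to 27.4, 17.6, 16.3 and 18.6 FPKM (log2 fold change -1.25 ± 0.26, adjusted p = 0.0335). Hmox1, which breaks down haem, was at 221, 226, 76.99 and 899 FPKM at 24 h and 55.8, 82.8, 66.7 and 57.2 FPKM at 8 weeks, and 24 h replicate 4 stood far above the others. Its adjusted p was 0.0622 with all 8 libraries and 0.0138 without 24 h replicate 3.

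Some genes of dividing cells were called lower. Of 28 cell cycle genes tested, 10 fell, where 3.66% of all genes fell, with a median log2 fold change of -1.51, and in 19 the groups did not overlap. The count was 9 without 24 h replicate 3, where 9.48% of all genes were lower. It was 3 without both libraries numbered 3 and 3 without 24 h replicates 3 and 4. The median was -1.02 in the first and -0.65 in the last of these fits. A count of 3 of 28 is near the 8.13% and 8.36% of all genes that were lower in the last 2 of these fits. With 8-week replicate 3 left out, edgeR called 0 of the 28, with 21 lower at an unadjusted p under 0.05. Kif20a, a kinesin of cell division, was at 1.84, 2.73, 6.36 and 4.55 FPKM at 24 h and 0.694, 1.26, 0.6401 and 0.677 FPKM at 8 weeks (log2 fold change -2.19 ± 0.43, adjusted p = 0.0298). Top2a, the topoisomerase that untangles replicated DNA, was at 4.07, 4.17, 12.98 and 5.901 FPKM at 24 h and 2.73, 1.995, 1.57 and 1.9 FPKM at 8 weeks (log2 fold change -1.65 ± 0.37, adjusted p = 0.0398), and Mcm2, of the replication helicase, at 5.28, 6.89, 10.3 and 7.13 FPKM at 24 h and 3.34, 3.74, 3.04 and 3.35 FPKM at 8 weeks (log2 fold change -1.07 ± 0.22, adjusted p = 0.032). The library labelled 24 h replicate 3 was the highest for all 3, and it is the one with gonadal transcription factors. In each the other 24 h libraries also lay above all 4 at 8 weeks.

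Several of the largest falls had that library as their highest. Bcat1, which breaks down branched-chain amino acids, was at 4.67, 3.73, 32.3 and 3.32 FPKM at 24 h and 0.263, 0.663, 0.274 and 0.331 FPKM at 8 weeks (log2 fold change -4.74 ± 0.84, adjusted p = 0.0243). Hmga2, a chromatin protein of growing tissue, was at 0.802, 0.788, 4.35 and 0.3897 FPKM at 24 h and 0.0502, 0.0897, 0.0218 and 0.0994 FPKM at 8 weeks (log2 fold change -4.50 ± 0.86, adjusted p = 0.0283). Inha, the inhibin alpha subunit, was at 24.3, 54.5, 246 and 52.3 FPKM at 24 h and 11.6, 15.4, 3.21 and 12.1 FPKM at 8 weeks (log2 fold change -3.08 ± 0.73, adjusted p = 0.0433). Greb1, an oestrogen-responsive gene, was at 5.94, 5.92, 40.6 and 9.16 FPKM at 24 h and 1.31, 2.92, 0.952 and 1.61 FPKM at 8 weeks, and Peg10, a paternally expressed gene, at 20.7, 27.5, 94.95 and 15.04 FPKM at 24 h and 4.098, 4.93, 3.65 and 5.08 FPKM at 8 weeks. In all 5, 24 h replicate 3 stood highest, and without it the adjusted p-values were 0.00264, 0.00719, 0.0252, 0.00965 and 0.00202. The falls were smaller without it, with log2 fold changes of -3.305, -3.28, -2.019, -2.015 and -2.187. With all 8 libraries Greb1 had -3.10 and Peg10 -3.06. Peg10 had been 95.3 to 110.4 FPKM before TAM, above every 8-week library.

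In the lists for steroid synthesis, cortical identity and the zona glomerulosa, each gene called with all 8 libraries was lower at 8 weeks except Cyb5a. Of 11 steroid synthesis genes 3 fell and 1 rose, where 3.66% and 3.28% of all genes did. The count lower was 8 without 24 h replicate 3 (9.48% of all genes) and 7 without both libraries numbered 3 (8.13%). It was 8 without 24 h replicates 3 and 4 (8.36%). The median log2 fold change of this list was -2.0 with all 8 libraries. With 8-week replicate 3 left out, edgeR called 0 genes of these 3 lists. At an unadjusted p under 0.05 that fit had 5 of 11 steroid synthesis, 3 of 9 identity and 6 of 15 zona glomerulosa genes lower. Fdxr, the ferredoxin reductase that passes electrons to mitochondrial steroid hydroxylases, was at 239.9, 408, 73.5 and 310.0 FPKM at 24 h and 31.6, 78.7, 41.03 and 68.8 FPKM at 8 weeks. Its 24 h replicate 3 value lay within the 8-week range and the other 3 above it (log2 fold change -2.21 ± 0.52, adjusted p = 0.043). Hsd3b1, which converts pregnenolone to progesterone, was at 2216, 2574, 3024 and 1067 FPKM at 24 h and 393, 941, 409 and 854 FPKM at 8 weeks (log2 fold change -1.73 ± 0.42, adjusted p = 0.0472). Hsd3b6, the isoform of the zona glomerulosa, was at 64.4, 62.3, 0.195 and 37.8 FPKM at 24 h and 1.45, 2.26, 0.489 and 0.864 FPKM at 8 weeks (log2 fold change -5.01 ± 1.27, adjusted p = 0.0499). For Hsd3b1, 24 h replicate 3 was the highest of its group, and the adjusted p was 0.0368 without that library. Without both libraries numbered 3 the adjusted p of Hsd3b1 was 0.0613. The Hsd3b genes are near-identical and can share reads. Cyb5a, cytochrome b5, went the other way at 156, 119.7, 226 and 151 FPKM at 24 h and 365, 261, 449 and 267 FPKM at 8 weeks (log2 fold change 1.13 ± 0.27, adjusted p = 0.0467).

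Whether the P450 enzymes were called depended on the library labelled 24 h replicate 3. Cyp11a1, the side-chain cleavage enzyme that uses the cholesterol Star delivers, was at 2749, 4656, 983 and 2593 FPKM at 24 h and 329.8, 985, 508 and 877 FPKM at 8 weeks. Its log2 fold change was -2.0 ± 0.54 (adjusted p = 0.0566), and -2.26 (adjusted p = 0.0126) without that library. Cyp21a1 stood at 2753, 4764, 2.42 and 1391 FPKM at 24 h and 311, 679, 239 and 562 FPKM at 8 weeks, with an adjusted p of 0.272 and of 0.0123 without 24 h replicate 3. Cyp11b1 stood at 1079, 1989.7, 1.07 and 969 FPKM at 24 h and 177, 341, 187 and 322 FPKM at 8 weeks, with an adjusted p of 0.33 and of 0.00671 without 24 h replicate 3. Cyp11b2, aldosterone synthase, was at 249, 336, 0.0883 and 459 FPKM at 24 h and 23.6, 67.8, 11.5 and 63.03 FPKM at 8 weeks, with an adjusted p of 0.237 and of 0.0123 without 24 h replicate 3. For Mc2r, the ACTH receptor, at 109, 187, 0.132 and 137 FPKM at 24 h and 34.8, 48.4, 17.2 and 33.8 FPKM at 8 weeks, the adjusted p was 0.367 and 0.00651 without 24 h replicate 3. The choice of these 5 genes was made after their values were seen. Each was below its 24 h level in all 4 libraries at 8 weeks when replicate 3 is set aside. In bulk tissue fewer cells of a type and less RNA per cell cannot be told apart, here and below.

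Transcription factors and zone markers of the cortex were called with the 24 h replicate 3 library in the fit as well. That library held little Cyp21a1 and Cyp11b1, so its levels of these genes may not be those of cortex. Nr5a1, which encodes SF-1, the factor that turns on most steroid enzymes, was at 132, 218, 104 and 93.6 FPKM at 24 h and 13.9, 38.9, 16.1 and 31.7 FPKM at 8 weeks, against 253 to 315 FPKM before TAM. The groups did not overlap, and the log2 fold change was -2.41 ± 0.40 (adjusted p = 0.0215). Gata6, a zinc finger factor of the adrenal cortex, was at 13.7, 17.4, 20.4 and 10.9 FPKM at 24 h and 8.29, 8.56, 5.63 and 7.84 FPKM at 8 weeks (log2 fold change -0.98 ± 0.20, adjusted p = 0.0314). It was highest in 24 h replicate 3. Without that library the log2 fold change was -2.52 for Nr5a1 (adjusted p = 0.00796) and -0.83 for Gata6 (adjusted p = 0.024). Of 9 identity genes 3 fell, and of 15 zona glomerulosa genes 6 fell, where 3.66% of all genes did. The zona glomerulosa list had a median log2 fold change of -1.76. Its count was 8 without 24 h replicate 3 (9.48% of all genes) and 8 without both libraries numbered 3 (8.13%). It was 9 without 24 h replicates 3 and 4 (8.36%).

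Dab2, an endocytic adaptor that marks the zona glomerulosa, was at 139, 222, 61.4 and 162 FPKM at 24 h and 21.1, 27.9, 21.9 and 30.9 FPKM at 8 weeks, against 194 to 249 FPKM before TAM (log2 fold change -2.50 ± 0.39, adjusted p = 0.019). All 8-week values were below the lowest at 24 h. Cacna1h, the T-type calcium channel of aldosterone cells, was at 9.09, 13.4, 7.92 and 6.57 FPKM at 24 h and 2.05, 2.36, 1.89 and 3.85 FPKM at 8 weeks (adjusted p = 0.02). Afap1l2, an actin-linked adaptor, was at 18, 26.2, 20.4 and 11.5 FPKM at 24 h and 5.56, 9.33, 5.46 and 6.38 FPKM at 8 weeks (adjusted p = 0.0243), and its level before TAM, 3.76 to 8.22 FPKM, overlapped that at 8 weeks. Pde8b, a phosphodiesterase that limits cyclic AMP, fell from 8.502, 12.5, 5.71 and 4.57 FPKM to 2.02, 3.87, 2.105 and 3.03 FPKM (adjusted p = 0.0433). Gramd1b, which moves cholesterol from the plasma membrane to the endoplasmic reticulum, was at 94.6, 108, 16.3 and 73.01 FPKM at 24 h and 5.77, 13.7, 11.2 and 18.7 FPKM at 8 weeks (log2 fold change -2.54 ± 0.58, adjusted p = 0.0405). Srd5a2, steroid 5-alpha-reductase, was at 14.4, 6.96, 4.11 and 31.5 FPKM at 24 h and 1.06, 1.02, 1.33 and 1.397 FPKM at 8 weeks (log2 fold change -3.54 ± 0.67, adjusted p = 0.0281), with the 4 values at 8 weeks between 1.02 and 1.397 FPKM.

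Genes of macrophages that have taken up lipid rose. Such cells turn on lysosomal, lipid-binding and surface receptor genes as they clear dead cells and store lipid. Of 14 genes of the list 9 rose, where 3.28% of all genes tested rose, with a median log2 fold change of 1.43. The count was 9 without 24 h replicate 3 (8.01% of all genes) and 8 without both libraries numbered 3 (6.14%). It was 12 without 24 h replicates 3 and 4 (7.94%). With 8-week replicate 3 left out it was 1 (0.662% of all genes), and 10 of the 14 were higher at an unadjusted p under 0.05. Spp1, the secreted protein osteopontin, was at 216, 139.9, 145 and 330.1 FPKM at 24 h and 1119.8, 1128, 536 and 767 FPKM at 8 weeks, against 14.98 to 35.6 FPKM before TAM (log2 fold change 2.11 ± 0.38, adjusted p = 0.026). Every library at 8 weeks was above every library at 24 h, and these above every earlier one. Trem2, a lipid-sensing receptor, was at 76.7, 62.7, 44.3 and 79.4 FPKM at 24 h and 138, 196, 158 and 119.5 FPKM at 8 weeks (log2 fold change 1.26 ± 0.25, adjusted p = 0.0314). Atp6v0d2, a macrophage subunit of the proton pump, was at 64.03, 44.6, 91.2 and 62.8 FPKM at 24 h and 187, 235, 198 and 136 FPKM at 8 weeks (adjusted p = 0.0206), and Itgax, the integrin CD11c, at 31.8, 21.9, 16.1 and 19.8 FPKM at 24 h and 56.3, 75.7, 75.9 and 47.99 FPKM at 8 weeks (adjusted p = 0.0237). Gpnmb, a transmembrane glycoprotein of such macrophages, was at 289, 219, 270.0 and 511 FPKM at 24 h and 954, 1184, 1265 and 748 FPKM at 8 weeks (log2 fold change 1.74 ± 0.39, adjusted p = 0.0397). Fabp5, a fatty acid binding protein, was at 277, 207, 316 and 525 FPKM at 24 h and 901, 1101, 874 and 763 FPKM at 8 weeks (adjusted p = 0.0361). Gpnmb and Fabp5 were picked with their values in view, and in neither did the groups overlap.

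General macrophage genes moved both ways. Of 18 tested, 3 rose and 1 fell, where 3.28% of all genes rose and 3.66% fell. Their median log2 fold change was 0.28. Lyz2, a lysozyme, was at 2001, 1771, 1128 and 1083 FPKM at 24 h and 4773, 6167, 4331 and 2752 FPKM at 8 weeks (log2 fold change 1.65 ± 0.37, adjusted p = 0.0398). Ctss, cathepsin S, was at 805, 615, 660.1 and 1136 FPKM at 24 h and 1872, 2486, 1771 and 1438 FPKM at 8 weeks (adjusted p = 0.0499), and Tyrobp, the adaptor of Trem2, at 224, 199, 145 and 321 FPKM at 24 h and 393, 647, 527 and 426 FPKM at 8 weeks (adjusted p = 0.0482). Without both libraries numbered 3 the adjusted p was 0.0582 for Ctss and 0.0567 for Tyrobp, and without 24 h replicates 3 and 4 it was 0.0506 for Lyz2. Fcgr1, the high-affinity IgG receptor and an interferon-induced gene, was at 18.1, 16.2, 10.3 and 23.5 FPKM at 24 h and 6.42, 9.13, 7.15 and 6.09 FPKM at 8 weeks, and it fell (log2 fold change -1.20 ± 0.29, adjusted p = 0.0446). Cd68, chosen after its values were seen, stood at 222, 186, 147 and 326 FPKM at 24 h and 365, 549.7, 449 and 365 FPKM at 8 weeks (adjusted p = 0.0748).

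Among 32 lysosome genes 2 rose, a count near the 3.28% of all genes that did. Without 24 h replicate 3, 2 were higher and 3 lower, where 8.01% of all genes were higher and 9.48% lower. Ctsk, cathepsin K, was at 17.4, 13.04, 20.5 and 22.3 FPKM at 24 h and 65.1, 72.4, 50.5 and 50.7 FPKM at 8 weeks (log2 fold change 1.75 ± 0.21, adjusted p = 0.0134), and Ctsl, cathepsin L, at 389, 306, 381 and 366 FPKM at 24 h and 875, 969, 913 and 826 FPKM at 8 weeks (log2 fold change 1.37 ± 0.22, adjusted p = 0.0206). The median over the lysosome list was 0.14. Mfge8, which bridges dying cells to phagocytes, was at 173, 215, 150.1 and 181 FPKM at 24 h and 524, 669, 718 and 375 FPKM at 8 weeks (log2 fold change 1.76 ± 0.29, adjusted p = 0.0216). Itgav, an integrin chain that takes part in this uptake, was at 15.96, 15.4, 25.5 and 22.2 FPKM at 24 h and 8.64, 8.67, 8.27 and 9.92 FPKM at 8 weeks and fell (log2 fold change -1.09 ± 0.19, adjusted p = 0.0243).

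Among lymphoid, complement and cytokine genes a few rose, where 3.28% of all genes did: 2 of 14 T cell, 2 of 14 complement, 2 of 28 chemokine and cytokine, 1 of 9 MHC class II and 1 of 16 Toll-like receptor and inflammasome genes. Of 8 B and plasma cell genes edgeR called 0, with 7 higher at an unadjusted p under 0.05, and DESeq2, voom and limma on FPKM called 7, 1 and 0 higher. Lat, an adaptor of T cell receptor signalling, was at 1.16, 0.739, 1.03 and 0.879 FPKM at 24 h and 8.72, 5.601, 5.099 and 2.94 FPKM at 8 weeks (log2 fold change 2.61 ± 0.40, adjusted p = 0.019). Il7r, the interleukin 7 receptor, was at 12.04, 7.15, 16.4 and 14.1 FPKM at 24 h and 39.6, 44.3, 42.3 and 28.2 FPKM at 8 weeks (log2 fold change 1.71 ± 0.27, adjusted p = 0.02), against 0.3103 to 2.42 FPKM before TAM. Both T cell genes were also called with 8-week replicate 3 left out. Igj, the joining chain of secreted antibodies, was at 22.1, 2.88, 14.3 and 0.882 FPKM at 24 h and 889.5, 118, 172 and 62.7 FPKM at 8 weeks, with 8-week replicate 1 highest (log2 fold change 5.04 ± 1.22, adjusted p = 0.0464, 0.0512 without both libraries numbered 3 and 0.0669 without 24 h replicates 3 and 4). H2-Ob, of the MHC class II peptide editor, was at 0.578, 0.594, 0.167 and 0.372 FPKM at 24 h and 4.21, 1.97, 1.81 and 1.36 FPKM at 8 weeks (adjusted p = 0.0358), and MHC genes can share reads. Lyz1, a lysozyme near-identical in places to Lyz2, was at 13.6, 13.1, 11.03 and 5.75 FPKM at 24 h and 258, 171, 45.8 and 30.02 FPKM at 8 weeks (adjusted p = 0.0281, and 0.0509 without 24 h replicates 3 and 4).

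Cxcl12, a chemokine that holds leukocytes in tissue, was at 62.2, 42.1, 57.2 and 27.3 FPKM at 24 h and 222, 276, 202 and 140.4 FPKM at 8 weeks (log2 fold change 2.15 ± 0.29, adjusted p = 0.0166). Il33, an alarm cytokine, was at 16.3, 14.3, 11.2 and 20.3 FPKM at 24 h and 38.04, 46.6, 24.7 and 26.6 FPKM at 8 weeks (adjusted p = 0.04), and Casp1, the inflammasome protease, at 11.4, 9.64, 11.4 and 15.8 FPKM at 24 h and 34.5, 27.5, 21.1 and 16.5 FPKM at 8 weeks (adjusted p = 0.049, and 0.0645 without both libraries numbered 3). Serping1, the C1 inhibitor, was at 212, 156, 139.9 and 137 FPKM at 24 h and 344, 506, 429 and 276 FPKM at 8 weeks (adjusted p = 0.0298). Cd55, which speeds the decay of complement convertases, was at 13.3, 8.13, 9.67 and 1.68 FPKM at 24 h and 52.5, 37.7, 31.6 and 53.01 FPKM at 8 weeks (adjusted p = 0.0314). Serping1 and Cd55 were the called ones of 14 complement genes, and every 8-week library was above every 24 h library for both. Serpina3n, an inflammation-induced protease inhibitor of a family with many near copies, was at 8.82, 7.53, 1.71 and 10.1 FPKM at 24 h and 75.7, 127, 104 and 60.6 FPKM at 8 weeks (log2 fold change 3.74 ± 0.55, adjusted p = 0.0183).

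Some genes of fatty acid metabolism rose. Of 15 fatty acid oxidation genes 7 rose, where 3.28% of all genes did, with a median log2 fold change of 1.29. The count was 9 without 24 h replicate 3 (8.01% of all genes) and 10 without both libraries numbered 3 (6.14%). It was 5 without 24 h replicates 3 and 4 (7.94%) and 5 without 8-week replicate 3 (0.662%). Slc25a20, which carries acylcarnitine into mitochondria, was at 38.4, 35.2, 24.04 and 37.3 FPKM at 24 h and 78.3, 99.7, 56.9 and 133 FPKM at 8 weeks (log2 fold change 1.48 ± 0.27, adjusted p = 0.026). Etfb, a subunit of the electron transfer flavoprotein, was at 136, 110.0, 55.3 and 110.0 FPKM at 24 h and 288, 332, 227 and 437 FPKM at 8 weeks (adjusted p = 0.0269). Etfa, its partner subunit, was at 136, 130.0, 92.1 and 94.8 FPKM at 24 h and 295, 311, 149.5 and 326 FPKM at 8 weeks (adjusted p = 0.03). Decr1, an enzyme for unsaturated fatty acids, was at 51.3, 44.2, 35.4 and 23.4 FPKM at 24 h and 126, 96.3, 63.6 and 127 FPKM at 8 weeks (adjusted p = 0.0283). Of 9 fatty acid synthesis genes 3 rose, where 3.28% of all genes did. The count was 5 without 24 h replicate 3 (8.01% of all genes) and 5 without both libraries numbered 3 (6.14%). It was 3 without 24 h replicates 3 and 4 (7.94%). With 8-week replicate 3 left out, edgeR called 0 of the 9, with 6 higher at an unadjusted p under 0.05. Elovl6, an elongase, was at 14.8, 18.03, 14.4 and 3.53 FPKM at 24 h and 107, 40.7, 74.96 and 103 FPKM at 8 weeks (log2 fold change 2.76 ± 0.50, adjusted p = 0.026), and Acaca, acetyl-CoA carboxylase, at 30.96, 25.8, 5.73 and 8.598 FPKM at 24 h and 112, 41.2, 79.6 and 148 FPKM at 8 weeks (log2 fold change 2.48 ± 0.61, adjusted p = 0.0487). Slc25a1, the citrate carrier, was at 88.9, 105, 30.9 and 61.4 FPKM at 24 h and 339.7, 122, 226 and 358 FPKM at 8 weeks (adjusted p = 0.045, and 0.0567 without 24 h replicates 3 and 4).

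Of 13 lipid droplet genes 3 rose, where 3.28% of all genes did, and 7 without 24 h replicate 3, where 8.01% of all genes did. With 8-week replicate 3 left out, edgeR called 0 of them, with 7 higher at an unadjusted p under 0.05. Dgat1, which makes triglyceride, was at 35.6, 28.3, 10.01 and 22.4 FPKM at 24 h and 118, 76.1, 79.4 and 115 FPKM at 8 weeks (log2 fold change 2.05 ± 0.38, adjusted p = 0.0262). Mgll, which breaks monoglyceride down, was at 54.03, 37.5, 18.2 and 27.5 FPKM at 24 h and 97.4, 92.3, 102 and 154 FPKM at 8 weeks (adjusted p = 0.0313), and Bscl2, the droplet-forming protein seipin, at 65.1, 47.4, 25.4 and 35.9 FPKM at 24 h and 112, 88.97, 85.8 and 125 FPKM at 8 weeks (adjusted p = 0.0343). Fat cell genes stood in the same order of groups. Pparg, the transcription factor of fat cells that macrophages also express, was at 26.2, 14.4, 12.01 and 12.5 FPKM at 24 h and 72.7, 55.5, 36.4 and 65.7 FPKM at 8 weeks (log2 fold change 1.85 ± 0.30, adjusted p = 0.0203). On the brown fat list 3 of 11 genes rose, where 3.28% of all genes did. Ppargc1a, a coactivator that drives mitochondrial genes, was at 0.5897, 0.589, 0.502 and 0.271 FPKM at 24 h and 2.19, 5.26, 2.29 and 3.01 FPKM at 8 weeks (adjusted p = 0.0166). Ppara, the nuclear receptor that turns on fatty acid oxidation, was at 2.93, 1.54, 4.29 and 1.004 FPKM at 24 h and 4.87, 7.3, 13.4 and 12.7 FPKM at 8 weeks (adjusted p = 0.0432). Cox7a1, a subunit of complex IV in muscle and brown fat, was at 38.4, 43.5, 4.88 and 22.1 FPKM at 24 h and 198, 294, 49.1 and 189 FPKM at 8 weeks (adjusted p = 0.0492). The summed white fat level was lowest in 24 h replicate 3 at 74.9 FPKM, and without it 8 of 12 white fat and 9 of 11 brown fat genes were called higher, where 8.01% of all genes were. With all 8 libraries 1 white fat gene was called, Pparg, where 3.28% of all genes rose. Without 24 h replicates 3 and 4 the counts were 4 white fat and 7 brown fat genes, where 7.94% of all genes were higher. They were 1 and 1 without 8-week replicate 3 (0.662% of all genes). The part that fat tissue had in the lipid results was not tested.

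Of 47 respiratory chain genes 4 rose, where 3.28% of all genes did. The count was 4 without 8-week replicate 3 (0.662% of all genes) and 26 without both libraries numbered 3 (6.14%). Without 24 h replicates 3 and 4 it was 3, near the 7.94% of all genes that were higher in that fit. Ndufb3, of complex I, was at 81.6, 80.2, 54.9 and 63.5 FPKM at 24 h and 175, 185, 84.2 and 161 FPKM at 8 weeks (adjusted p = 0.0336), and Cox6c, of complex IV, at 219, 241, 228 and 272 FPKM at 24 h and 594, 628, 272 and 499 FPKM at 8 weeks (adjusted p = 0.0372). The brown fat sum was 526, 562, 84.4 and 183 FPKM at 24 h and 1597, 2597, 689 and 2785 FPKM at 8 weeks, and 8-week replicate 3 was the lowest of its group for the sum and for both genes. Free fatty acid receptor 4 (Ffar4), known from fat cells and macrophages, was at 2.19, 2.13, 0.0687 and 0.195 FPKM at 24 h and 17.7, 22.6, 5.204 and 20.7 FPKM at 8 weeks (log2 fold change 3.87 ± 0.98, adjusted p = 0.0499).

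Sterol genes were called in both directions. Of 25 cholesterol synthesis genes 4 rose, where 3.28% of all genes did, with a list median of 0.47. Pmvk, phosphomevalonate kinase, was at 13.01, 14.2, 7.702 and 11.2 FPKM at 24 h and 32.9, 22.3, 26.8 and 36.6 FPKM at 8 weeks (adjusted p = 0.0269). Nsdhl, which removes methyl groups from the sterol ring, was at 12.8, 12.6, 14.3 and 4.89 FPKM at 24 h and 34.9, 22.6, 22.2 and 27.9 FPKM at 8 weeks (adjusted p = 0.0395). Acat2, which makes acetoacetyl-CoA in the cytosol, was at 23.8, 17.03, 10.6 and 10.7 FPKM at 24 h and 70.3, 41.3, 31.3 and 54.4 FPKM at 8 weeks (adjusted p = 0.0286). Insig1, which retains the sterol sensor in the endoplasmic reticulum, was at 36.6, 26.7, 22.4 and 20.9 FPKM at 24 h and 70.5, 37.3, 68.5 and 66.6 FPKM at 8 weeks (adjusted p = 0.0372, 0.0548 without both libraries numbered 3 and 0.0688 without 24 h replicates 3 and 4). LXR, the nuclear receptor for oxysterols, has 14 targets on its list. Of these 1 rose and 3 fell, where 3.28% of all genes rose and 3.66% fell. Abca1, the cholesterol exporter, was at 66.6, 43.5, 50.8 and 44.7 FPKM at 24 h and 25.7, 21.9, 26.1 and 28.3 FPKM at 8 weeks (log2 fold change -0.94 ± 0.21, adjusted p = 0.0372). Scd2, a fatty acid desaturase, was at 401, 489, 186 and 166 FPKM at 24 h and 85.9, 95.5, 58.6 and 104 FPKM at 8 weeks (log2 fold change -1.81 ± 0.40, adjusted p = 0.0372), and Arl4c, a small GTPase, at 14.6, 12.8, 9.95 and 15.7 FPKM at 24 h and 7.64, 8.26, 5.56 and 5.77 FPKM at 8 weeks (adjusted p = 0.0418). Smpdl3a, a secreted phosphodiesterase, was the one that rose, at 53.7, 42.8, 40.5 and 53.1 FPKM at 24 h and 95.5, 87.03, 79.9 and 72.2 FPKM at 8 weeks (adjusted p = 0.0326).

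Of 19 immediate early genes 4 rose and 1 fell, where 3.28% of all genes rose and 3.66% fell. Fos, a subunit of AP-1 that many stimuli induce, was at 19.8, 4.88, 9.35 and 13.4 FPKM at 24 h and 43.97, 123, 53.9 and 121 FPKM at 8 weeks (log2 fold change 2.88 ± 0.49, adjusted p = 0.0232). Its level before TAM was 1.66 to 48.3 FPKM, which overlaps that at 8 weeks. Egr1, a zinc finger factor of the same early response, was at 49.5, 22.7, 51.02 and 18.5 FPKM at 24 h and 77.2, 135, 98.3 and 151 FPKM at 8 weeks (adjusted p = 0.0314). Its level before TAM was 11.1 to 133 FPKM, and with all 13 libraries in the edgeR fit its adjusted p was 0.0611. Its relative Egr2 was at 3.22, 1.67, 3.93 and 2.81 FPKM at 24 h and 6.16, 10.6, 8.69 and 7.82 FPKM at 8 weeks (adjusted p = 0.0263), against 0.319 to 1.785 FPKM before TAM. With all 13 libraries in the edgeR fit the adjusted p was 0.0282 for Fos and 0.0348 for Egr2. Myc went the other way at 20.1, 18.9, 33.04 and 20.7 FPKM at 24 h and 9.802, 13.7, 10.3 and 12.2 FPKM at 8 weeks (log2 fold change -0.95 ± 0.20, adjusted p = 0.0328). Among 13 glucocorticoid targets 3 rose, where 3.28% of all genes did. Tsc22d3, which encodes the glucocorticoid-induced leucine zipper, was at 34.9, 36.5, 30.1 and 23.9 FPKM at 24 h and 72.3, 86.7, 52.5 and 65.5 FPKM at 8 weeks, against 39.9 to 68.2 FPKM before TAM (log2 fold change 1.19 ± 0.18, adjusted p = 0.019). Klf15 was at 8.298, 5.01, 8.05 and 4.99 FPKM at 24 h and 11.2, 11.3, 19.4 and 17.1 FPKM at 8 weeks (adjusted p = 0.0415, and 0.0533 without 24 h replicates 3 and 4), and Sult1a1, a sulfotransferase, at 16.9, 10.8, 7.53 and 8.595 FPKM at 24 h and 55.7, 28.4, 57.9 and 39.4 FPKM at 8 weeks (adjusted p = 0.0215). Of 18 clock genes 2 fell, where 3.66% of all genes did. Arntl, which encodes the clock activator BMAL1, was at 11.3, 14.9, 6.91 and 16.2 FPKM at 24 h and 4.52, 5.35, 2.43 and 4.09 FPKM at 8 weeks (adjusted p = 0.0335). Before TAM it ranged from 2.06 to 31.5 FPKM, and with all 13 libraries in the edgeR fit its adjusted p was 0.219. Nfil3, a repressor in the clock's output, was at 24.99, 36.3, 9.45 and 41.2 FPKM at 24 h and 6.77, 9.97, 4.17 and 4.64 FPKM at 8 weeks (adjusted p = 0.0386). The labels give no hour of collection, so time of day and group cannot be told apart for these genes.

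Connective tissue and vessel genes moved in both directions. Dpt, the matrix protein dermatopontin, was at 15.3, 10.2, 3.86 and 2.71 FPKM at 24 h and 93.1, 47.3, 47.3 and 41.3 FPKM at 8 weeks (log2 fold change 2.90 ± 0.56, adjusted p = 0.0287), and Thy1, a fibroblast surface protein that T cells also carry, at 23.7, 17.98, 10.04 and 13.4 FPKM at 24 h and 33.9, 49.5, 26.6 and 34.5 FPKM at 8 weeks (adjusted p = 0.045). They were the called ones of 15 capsule and fibroblast genes, where 3.28% of all genes rose. Without 24 h replicate 3 the count was 7, where 8.01% of all genes were higher. Loxl2, which cross-links collagen, was at 30.9, 39.2, 22.5 and 45.7 FPKM at 24 h and 13.8, 17.6, 11.2 and 14.1 FPKM at 8 weeks and fell (log2 fold change -1.25 ± 0.26, adjusted p = 0.032), as did the laminin chain Lamc1, at 22.9, 20.4, 27.3 and 22.8 FPKM at 24 h and 13.8, 11.5, 11.1 and 15.04 FPKM at 8 weeks (adjusted p = 0.0287). Mmp13, a collagenase, was at 11.1, 9.93, 1.99 and 17.5 FPKM at 24 h and 1.65, 1.42, 1.74 and 1.47 FPKM at 8 weeks (log2 fold change -2.66 ± 0.58, adjusted p = 0.0369), where 24 h replicate 3 lay just above the 8-week range. Timp4, an inhibitor of such enzymes, was at 2.52, 1.04, 0.315 and 0.543 FPKM at 24 h and 5.38, 7.88, 4.83 and 14.03 FPKM at 8 weeks (adjusted p = 0.0418). Gli3, a hedgehog transcription factor, was at 1.13, 1.14, 2.203 and 1.83 FPKM at 24 h and 0.6301, 0.672, 0.536 and 0.622 FPKM at 8 weeks (adjusted p = 0.0372).

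Vwf, the clotting factor of endothelial cells, was at 1.49, 0.969, 1.62 and 0.798 FPKM at 24 h and 7.01, 3.002, 4.05 and 6.58 FPKM at 8 weeks (log2 fold change 2.15 ± 0.33, adjusted p = 0.019). It was the called one of 16 endothelial genes, where 3.28% of all genes rose. With 24 h replicate 3 left out 7 of the others were called lower, where 9.48% of all genes were. The endothelial marker Pecam1, chosen after its values were seen, stood at 65.3, 62.8, 25.1 and 113 FPKM at 24 h and 54.8, 47.7, 32.4 and 51.9 FPKM at 8 weeks (adjusted p = 0.434). Medulla genes followed the libraries that lacked them. Chga, chromogranin A of chromaffin cells, was at 1155, 737, 5.27 and 24.4 FPKM at 24 h and 1778, 2659, 1938 and 2774 FPKM at 8 weeks, with an adjusted p of 0.257. Without 24 h replicates 3 and 4, 12 of 20 medulla genes were called higher, where 7.94% of all genes were. Chga had an adjusted p of 0.0345 in that fit.

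Among all genes, Sfrp5 (chr19:42197971-42202252) had the lowest adjusted p. It encodes a secreted antagonist of Wnt signalling and is known from fat tissue. Its level was 0.772, 0.772, 0.604 and 0.642 FPKM at 24 h and 7.85, 11.7, 9.55 and 8.93 FPKM at 8 weeks, and 0.83 to 1.56 FPKM before TAM (log2 fold change 3.82 ± 0.26, adjusted p = 0.00212). In the 8 fits with 1 library left out its adjusted p stayed between 0.00153 and 0.0207. Mamdc2, a matrix proteoglycan gene, was at 3.99, 2.43, 12.2 and 2.63 FPKM at 24 h and 59.2, 63.2, 65.8 and 47.1 FPKM at 8 weeks (log2 fold change 3.58 ± 0.51, adjusted p = 0.018), and Htr2b, a serotonin receptor, at 1.398, 0.823, 0.847 and 0.393 FPKM at 24 h and 11.1, 12.6, 6.14 and 8.34 FPKM at 8 weeks (log2 fold change 3.51 ± 0.40, adjusted p = 0.0134). The rises of H2-Q10, Rbp4 and Slc27a2, all abundant in liver, were largest in 8-week replicate 3. Other genes among the 12 largest rises that are not named here were also highest in that library. H2-Q10, a secreted MHC class I molecule, was at 3.96, 4.24, 2.29 and 1.03 FPKM at 24 h and 27.8, 22.2, 282 and 26.6 FPKM at 8 weeks. Rbp4, the plasma carrier of retinol, was at 15.99, 13.7, 1.06 and 5.74 FPKM at 24 h and 133, 62.5, 625 and 94.3 FPKM at 8 weeks. Slc27a2, a fatty acid transporter and activating enzyme, was at 5.07, 5.63, 0.707 and 4.66 FPKM at 24 h and 20.1, 28.9, 204 and 43.9 FPKM at 8 weeks. Without both libraries numbered 3 the adjusted p was 0.0112 for H2-Q10, 0.00976 for Rbp4 and 0.0066 for Slc27a2. Without 24 h replicates 3 and 4 it was 0.0686, 0.0517 and 0.0567.

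The largest falls, which were picked only among genes whose groups did not overlap, included 5 more genes. Bean1 was at 12.8, 20.7, 4.32 and 13.2 FPKM at 24 h and 0.147, 1.11, 0.345 and 0.605 FPKM at 8 weeks (log2 fold change -4.52 ± 0.69, adjusted p = 0.019). Osr2, a zinc finger transcription factor, was at 13.7, 19.6, 29.9 and 15.3 FPKM at 24 h and 1.35, 3.65, 2.08 and 2.003 FPKM at 8 weeks (log2 fold change -3.05 ± 0.36, adjusted p = 0.0134), and its level before TAM was 13.9 to 18.9 FPKM. Epn3, an endocytic epsin, was at 1.68, 1.99, 2.64 and 2.68 FPKM at 24 h and 0.0719, 0.311, 0.141 and 0.267 FPKM at 8 weeks (adjusted p = 0.0166). Jsrp1, a protein of the sarcoplasmic reticulum, was at 5.12, 6.85, 0.514 and 15.2 FPKM at 24 h and 0.407, 0.336, 0.123 and 0.372 FPKM at 8 weeks (adjusted p = 0.0336). Kcnu1, a potassium channel gene, was at 5.05, 10.9, 1.79 and 42.03 FPKM at 24 h and 0.396, 0.814, 0.491 and 1.04 FPKM at 8 weeks (adjusted p = 0.0365). Before TAM its level was 0.248 to 4.27 FPKM. Kcnu1 (chr8:25849760-25938071) lies near Star (chr8:25808513-25816119) on the same strand, and the part that this position had was not tested. For Jsrp1 and Kcnu1, 24 h replicate 4 was the highest library.

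**Figure D5:**
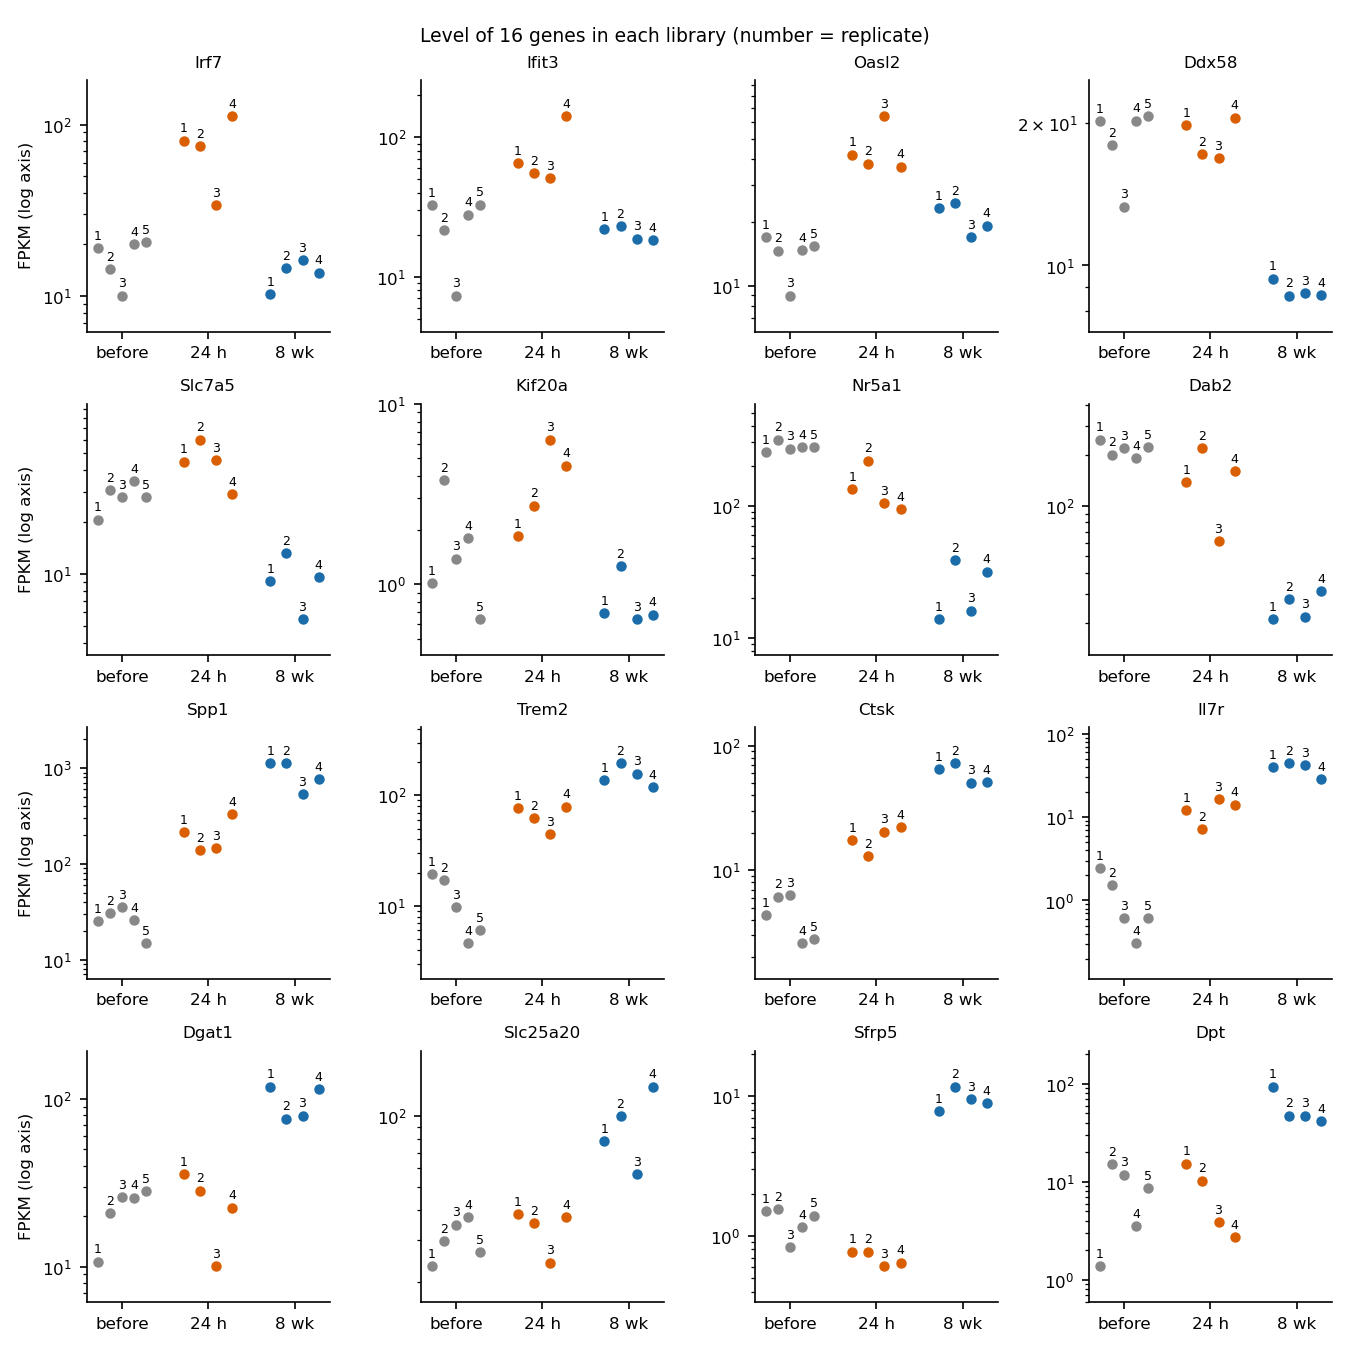
FPKM (log axis) of 16 genes in each library, by group (before TAM, 24 h, 8 wk), with 1 point per library and its replicate number above it. In all 16 panels the 24 h and 8-week points do not overlap: the first 8 genes were lower at 8 weeks and the last 8 higher.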

How the data were processed

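Messenger RNA of 13 mouse adrenal libraries was sequenced, and 8 of them enter the tests. Per the submitters' processing notes, the tools were bcl2fastq 2.17 and TopHat2 2.0.14 and the build mm10; which program counted the reads was not stated there. Per the file headers, each deposited table holds, per library, the expected count of every RefSeq transcript (estimated reads, not whole) and an FPKM value normalized by the authors. Each table lists transcripts only where enough reads were seen: all 18738 transcripts in both later tables have at least 16 reads in 3 of 4 later libraries or in 4 of 5 earlier ones, so a gene near 0 both before TAM and in one later group is not compared.

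Expected counts were summed per gene, rounded, filtered with filterByExpr, scaled with TMM and tested with edgeR 4.0.16 (quasi-likelihood, Benjamini-Hochberg, threshold 0.05, R 4.3.3) on simulated data and then on 14029 genes. In the simulated data with all 8 libraries, 3.03% of the 2-fold and 50% of the 4-fold changes were called. A gene that was not called may therefore still have changed. FPKM serve as levels. DESeq2 1.42.0 and limma 3.58.1 (voom with quality weights, and log2(FPKM + 0.1)) were alternatives. The members and the 58 gene lists were chosen with earlier results of these data known. Genes were named by rule: Star, the 12 largest rises and falls among called genes whose groups did not overlap (with the higher group averaging 5 CPM or more), and up to 4 called members of each list by p. Some genes that met this rule are not named above. Promoters are RefSeq sequence on GRCm38.p6. A called gene is not reported here.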

Additional observations from a re-analysis of the deposited data

Results flagged for a closer look

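In 21 of 254 groups of 4 values, 1 library stood so far from the other 3 that its gap to them, as a share of the range, passed Dixon's critical value, and chance flags about 1 in 20 groups. The library labelled 24 h replicate 3 was the highest of its group in 7 of these, for Mamdc2 (12.17 FPKM), Bcat1 (32.28), Hmga2 (4.353), Greb1 (40.62), Inha (246.0), Peg10 (94.95) and Myc (33.04). Among the other 24 h libraries, replicate 1 was apart for Pparg (26.21 FPKM) and Ccr2 (6.667), and replicate 4 for Ifit3 (141.9). At 8 weeks, replicate 1 was apart for Igj (889.5 FPKM), Ddx58 (9.384), Dpt (93.09) and Mki67 (2.371). Replicate 2 was apart for Bcat1 (0.6628 FPKM), Insig1 (37.28) and Kif20a (1.259). Replicate 3, the one with liver RNA, was apart for H2-Q10 (281.5 FPKM), Rbp4 (624.5) and Slc27a2 (204.0), and replicate 4 for Mgll (153.7). All these genes but Ccr2 and Mki67 have their values in every library above. Outside the transcripts compared, the 8-week table holds 527 genes that the 24 h table does not list, and for 254 of them every 8-week library was above every library from before TAM.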

How the results depend on the processing

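The count of genes called moved with the libraries and with the tool. All 460 higher genes and at least 512 of the 513 lower ones kept their direction in every alternative. The alternatives reuse the libraries that picked these genes, so this lends the calls no independent support. With the 24 h replicate 3 and 8-week replicate 3 libraries left out together, 2003 genes were called (862 higher, 1141 lower, 271 list members). With 24 h replicates 3 and 4 left out together, 2290 were called (1115 higher, 1175 lower, 249 list members), and with 8-week replicate 3 left out as well, an alternative chosen after seeing the data, 2702 (1387 higher, 1315 lower, 324 list members). A fit of all 13 libraries called 2923 (1428 higher, 1495 lower, 264 list members). In it 5 of the genes named above lost their call. Among them were Thy1 (adjusted p = 0.0533), Egr1 (0.0611), Atp6v0d2 (0.111) and Arntl (0.219). DESeq2 called 2672 (1367 higher, 1305 lower, 304 list members), and voom with quality weights 3904 (1842 higher, 2062 lower, 355 list members). Leaving out 1 library at a time gave 1 to 2454 genes, of which 1 to 1124 were higher and 0 to 1330 lower, and 0 to 276 list members, against 125 with all 8. The RLE, no-scaling, no-filter and FPKM alternatives stayed within 1.5 times the total of 973. Of the genes called, 47.3% were higher with TMM, 53.6% with RLE scaling and 40.5% with no scaling, where the median of all genes was -0.12 in place of -0.08.

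The labels do not say whether a replicate number pairs libraries. Same-numbered libraries deviated from their group means with correlations of -0.13, 0.08, 0.001 and -0.12. Differently numbered ones did so with -0.156 to 0.202. With so few libraries these values cannot show whether the numbers pair them. A fit with the number as a block made 0 calls in edgeR (0 higher, 0 lower, 0 list members), with 3471 genes at an unadjusted p under 0.05, and gave the Star model share the same difference of -39.97 points with an exact p of 0.125, the smallest that 4 pairs can give. Without 1 library the difference in share lay between -47.99 and -33.3 points.

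The log2 fold change of Star was -1.461 (adjusted p = 0.0482) without both libraries numbered 3, -1.915 (0.0101) without 24 h replicates 3 and 4, -1.767 (0.00777) without those and 8-week replicate 3, and -1.658 (0.0212) by voom, and -1.584 to -0.681 with 1 library left out. It was -0.536 (0.739) under the block and -0.393 (0.822) by limma on log2(FPKM + 0.1). Of 112 genes named that were called with all 8 libraries, 111 lost their call without 24 h replicate 2, 111 without 8-week replicate 1, 101 without 8-week replicate 2, 98 without 8-week replicate 4 and 112 under the block. The direction of 2 genes, neither called with all 8 libraries, reversed by limma on FPKM: Cyp11b1 at 0.146 and Mc2r at 0.156, both listed near 0 in 24 h replicate 3. The cause of the other shifts was not tested. Genes with few reads both before TAM and in one of the later groups are not in both tables, so rises from 0 and falls to 0 of such genes are outside these counts.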

Other observations

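Some genes stand in the 8-week and before tables and not in the 24 h table, so they have no value at 24 h here. The genes below were chosen after their values were seen. Ccl21a, a chemokine of lymphoid tissue with near-identical copies in the mouse genome, was at 66.5, 75.3, 30.6 and 67.9 FPKM at 8 weeks and between 0.448 and 15.98 FPKM before TAM. Il6, an inflammatory cytokine, was between 2.01 and 5.09 FPKM at 8 weeks and at most 0.064 FPKM before. Grem1, a secreted antagonist of bone morphogenetic proteins, was at 2.62, 3.50, 13.97 and 7.69 FPKM at 8 weeks and at most 0.570 FPKM before. Ubd, a ubiquitin-like protein gene that cytokines induce, was at 9.06, 2.00, 2.97 and 3.60 FPKM at 8 weeks and at most 0.465 FPKM before. Cxcr1, a chemokine receptor of neutrophils, was at 2.58, 4.04, 3.21 and 1.80 FPKM at 8 weeks and at most 0.072 FPKM before.

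Genes of the 24 h table that the 8-week table does not list set its replicate 3 apart in both directions. Gdf9 and Dppa3, known from oocytes, were at 49.9 and 35.7 FPKM in that library and at most 0.834 and 0.920 FPKM in the other three. Fosl1, an AP-1 subunit, was at 0.0950 FPKM there and at 5.01, 6.83 and 6.17 FPKM in replicates 1, 2 and 4.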
